A study of Mus musculus with 6 samples.

Results

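Transcripts of 9 genes of the photoreceptor outer segment were examined in the wild-type mouse retina. Their proteins act in its light-sensing discs, in the ciliary axoneme that runs beside them or, for Tulp1, in protein transport to the outer segment. The genes were chosen by name, as Prph2, Rom1, Prom1, Cdhr1, Rp1, Rp1l1, Fscn2, Tulp1 and Mak, and all 9 were among the 15465 genes of the deposited tables. RNA sequencing had been done on retina of the mouse strain C57BL6/J, genotype Wild Type, with no treatment or age in the labels and 5 mice pooled for each library. The samples formed 1 group of 3 biological replicates, called pools here, and the labels of both technical replicates of a pool name 1 table with 1 column of values, so n was 3 and no comparison between conditions was possible. This follows the sample titles. The source labels number the same samples differently, so that each column would join 2 sources if they were right, and the SDs and tests rest on the titles.

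An outer segment is a modified cilium filled with a stack of membrane discs. New discs form at its base as outgrowths of the plasma membrane, driven by actin, and are then closed off along a curved rim. Prph2 and Rom1 are tetraspanins that assemble into complexes at the rim. Prom1 and Cdhr1 lie at the edges of newly forming discs, and Fscn2 bundles actin filaments. Rp1 and Rp1l1 are doublecortin-domain proteins that bind the microtubules of the axoneme, and Mak is a kinase that limits the length of that cilium. Tulp1 is a photoreceptor protein of the tubby family that is needed for transport of proteins to the outer segment. Variants in the human counterparts of most of these genes cause inherited retinal degeneration.

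Promoter windows show the sequence next to the genes at the top of the set. In the RefSeq table for GRCm38.p6, windows of 300 bases (250 before and 50 after a transcription start) matched 7 of the 9 genes, with 9 windows in all. Rp1 and Rp1l1 were not matched. The homeobox motif TAATCC, or its complement GGATTA, is bound by the photoreceptor factor Crx. It was in 1 of the 9 windows, at the second start of Mak, and in 7.06% of all 32851 windows of the table. The shorter core TAATC, or GATTA on the other strand, which also lies inside the longer motif, was in 5 of the 9 windows, of Prom1, Tulp1, Prph2 and both starts of Mak, and in 22.0% of all windows. A match is a description of these letters and not a bound site. The windows of both rim genes and the Mak window with the longer motif follow, 5′ to 3′ on the strand of the gene, with the core motif in capitals.
Prph2, chr17:46910228-46910527, plus strand: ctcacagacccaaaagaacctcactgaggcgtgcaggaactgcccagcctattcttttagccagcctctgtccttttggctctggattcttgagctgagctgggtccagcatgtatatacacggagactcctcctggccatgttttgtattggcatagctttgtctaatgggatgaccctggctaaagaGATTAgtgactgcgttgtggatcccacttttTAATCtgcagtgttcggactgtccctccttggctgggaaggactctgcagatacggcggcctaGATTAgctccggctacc
Rom1, chr19:8929307-8929606, minus strand: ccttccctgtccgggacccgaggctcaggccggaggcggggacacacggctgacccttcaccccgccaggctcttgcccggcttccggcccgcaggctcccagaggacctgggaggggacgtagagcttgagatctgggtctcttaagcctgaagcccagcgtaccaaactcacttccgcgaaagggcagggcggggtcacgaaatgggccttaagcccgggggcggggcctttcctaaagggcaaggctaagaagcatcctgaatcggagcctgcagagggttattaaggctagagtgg
Mak, second start, chr13:41070416-41070715, minus strand: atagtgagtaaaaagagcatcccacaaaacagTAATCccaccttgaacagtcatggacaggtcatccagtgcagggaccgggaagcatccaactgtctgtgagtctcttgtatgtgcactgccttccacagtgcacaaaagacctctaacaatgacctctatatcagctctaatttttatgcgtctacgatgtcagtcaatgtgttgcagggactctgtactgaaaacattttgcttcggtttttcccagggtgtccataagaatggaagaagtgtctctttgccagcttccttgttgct
The Prph2 window holds 3 copies of the core, which begin 61 and 30 bases before the start and at base 34 after it. The Rom1 window holds no copy. These coordinates are of GRCm38.p6 and not of mm9, the build of the deposited values.

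The values were RPKM (reads scaled to transcript length and library size), as inferred from the numbers, and summed to between 249532 and 302634 per pool over all genes. The read depth behind them is unknown. The labelled tissue matched its markers: 9 of 9 rod markers were measured with a median of 652 ± 52.4 RPKM. By the test described below, 0 of 9 rod and 0 of 9 cone markers varied between pools. Over all tested genes 5.44% varied, so these counts of 0 say little and do not bear on the tissue. Markers of neighbouring tissue did vary, in 8 of 10 lens genes, 4 of 7 pigment epithelium genes and 4 of 6 cornea and muscle genes that were tested. The pigment genes differed in pattern: Rpe65 was highest in pool 2 (6.25, 20.1 and 6.74 RPKM), while Pmel, Mlana and Tyrp1 were lowest in pool 3. Rpe65 and, among the cornea genes, Krt12 have symbols that differ from another by added digits, a trait described below for Mak. Summed lens markers were 649, 303 and 1743 RPKM and summed pigment epithelium markers 405, 381 and 202 RPKM in pools 1, 2 and 3. Their part in the values below was not tested. In bulk tissue, fewer cells of a type and less RNA per cell cannot be told apart.

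The disc structure genes were among the abundant transcripts of the retina. Their median was 120.4 ± 9.23 RPKM (SD, n = 3), against 6.09 ± 0.396 RPKM for all genes, a difference of 4.31 ± 0.02 on the log2 scale, or 19.8-fold. The log2 difference was 5.26 by means of log2 values and 5.09 after multiplication by transcript length. For 6 of the 9 genes the mean was at least 100 RPKM, against 326 of 15465 genes (2.11%) in all. The 9 genes together held 1.58% ± 0.0305 of the summed RPKM. The rim pair made up 73.5% ± 0.917 of that. Without Mak, whose row is described below, the median of the other 8 genes was 169.7 ± 13.3 RPKM.

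**Figure D1:**
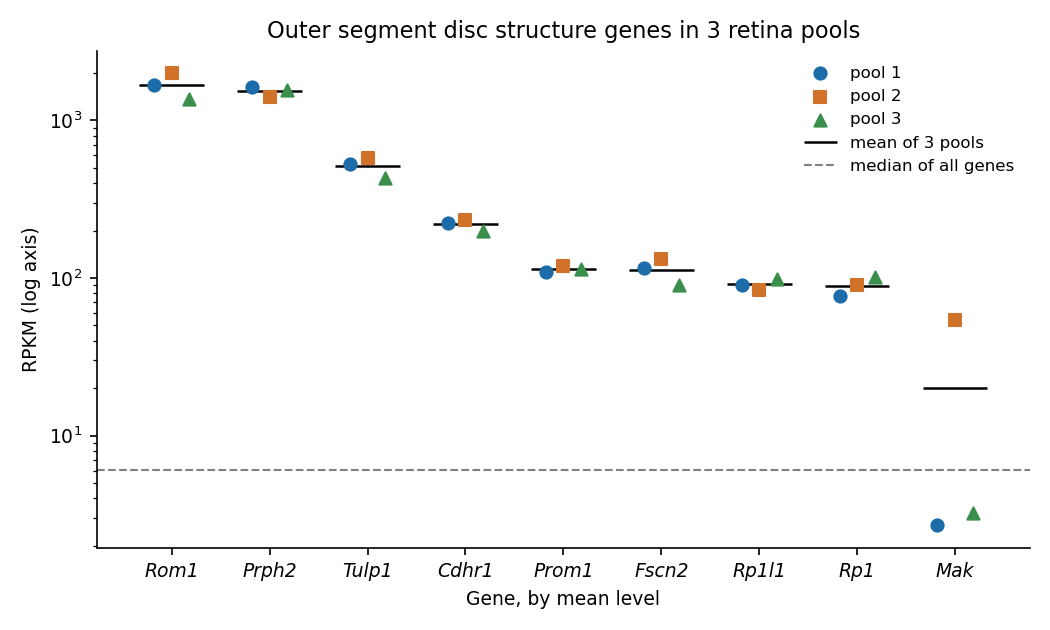
RPKM on a log axis for each disc structure gene, with 1 point per retina pool, a bar at the mean of 3 pools and a dashed line at the median of all genes (6.09 RPKM). Rom1 and Prph2 lie highest with means of 1675 and 1531 RPKM, and Mak has pools between 2.70 and 54.4 RPKM.

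The rim tetraspanins were the most abundant of the set. Rom1 had 1674, 1988 and 1361 RPKM in pools 1, 2 and 3, a mean of 1675 ± 314 that ranked 5 among all genes. Prph2 had 1619, 1407 and 1567 RPKM, a mean of 1531 ± 110.2 that ranked 7. Pool 2 was the highest for Rom1 and the lowest for Prph2, and the ranges of both genes overlapped. The ratio of Prph2 to Rom1 was 0.967, 0.708 and 1.15 in pools 1, 2 and 3. Its mean was -0.11 ± 0.36 on the log2 scale (SD, n = 3), so the 2 genes did not differ beyond the spread between pools (exact two-sided sign-flip test, p = 0.75, where 0.25 is the smallest p that 3 pools allow). The log2 ratio was 0.08 without pool 2 and -0.27 without pool 3, so 1 pool sets its sign. The row of Prph2 was written differently from that of Rom1, as described below, and the part of this in the ratio was not tested. Relative to Gnat1, the rod transducin alpha subunit with 4801, 5458 and 5051 RPKM, Prph2 stood at 0.337, 0.258 and 0.31 and Rom1 at 0.349, 0.364 and 0.269.

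The ratio depends on the length that RPKM divides by. In GENCODE M21, the RefSeq-linked transcript of Prph2 has 2665 bases and that of Rom1 has 1517. Multiplied by these lengths, so that the values stand for shares of reads rather than for levels per length, Prph2 exceeded Rom1 by 0.70 ± 0.36 on the log2 scale, or 1.62-fold. The length that the authors divided by is not given in the sources used here.

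The genes of disc formation stood lower than the rim pair. Cdhr1, a photoreceptor cadherin, had 225, 234 and 198 RPKM in pools 1, 2 and 3 (mean 219 ± 18.8). Prom1, a membrane protein of the growing disc edge, had 109.8, 119 and 114 RPKM (mean 114 ± 4.65). Cdhr1 was higher in 3 of 3 pools, and Prom1 differed from it by -0.93 ± 0.12 on the log2 scale, a factor of 1.91. The SD of Prom1 was 4.07% of its mean, the smallest share of the 9 genes. Fscn2, the retinal fascin, had 116, 131 and 90.1 RPKM (mean 112 ± 20.7), with pool 3 lowest. Its range enclosed that of Prom1, and Prom1 was the higher of the pair in 1 of 3 pools.

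The axonemal pair Rp1 and Rp1l1 stood close together. Rp1l1 had 90.8, 83.9 and 99.0 RPKM in pools 1, 2 and 3 (mean 91.3 ± 7.56), and Rp1 had 76.4, 89.8 and 101 RPKM (mean 89.0 ± 12.2). The ranges overlapped, and both genes were highest in pool 3. The log2 ratio of Rp1l1 to Rp1 was 0.04 ± 0.18 (exact sign-flip test, p = 1). Multiplied by transcript length it was 0.83 ± 0.18, but this rests on the length taken for Rp1, 3863.5 bases, which is the median of transcripts of 6869 and 858 bases. With the longer transcript the products were 611 for Rp1 and 610 for Rp1l1 (mean RPKM times kilobases), nearly equal. Relative to Gnat1, Rp1 stood at 0.0159, 0.0165 and 0.02, and Rp1l1 at 0.0189, 0.0154 and 0.0196.

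Tulp1, the tubby-like protein of photoreceptors, ranked 30 among all genes. It had 526, 578 and 432 RPKM in pools 1, 2 and 3 (mean 512 ± 74.4), highest in pool 2 and lowest in pool 3. It was below Prph2 in 3 of 3 pools by a factor of 3.01 and above Cdhr1 in 3 of 3 by a factor of 2.33.

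Placed in order of mean level, neighbouring genes either kept their direction in 3 of 3 pools or changed it between pools. The order was Rom1, Prph2, Tulp1, Cdhr1, Prom1, Fscn2, Rp1l1, Rp1 and Mak. Of the 8 neighbouring pairs, 4 kept the same direction in 3 of 3 pools, namely Prph2 over Tulp1, Tulp1 over Cdhr1, Cdhr1 over Prom1 and Rp1 over Mak. Each of these 4 had p = 0.25 by the exact sign-flip test, the smallest that 3 pools allow. No pair could therefore pass that test. The genes were sorted by the same values, so some agreement in direction is built in. The other pairs (Rom1 with Prph2, Prom1 with Fscn2, Fscn2 with Rp1l1, and Rp1l1 with Rp1) changed direction between pools, with exact sign-flip p between 0.5 and 1. Prom1, Fscn2, Rp1l1 and Rp1 thus had means between 89.0 and 114 RPKM, and no neighbours among them differed beyond their spread. They were not all level, since Prom1 was above both Rp1l1 and Rp1 in 3 of 3 pools. Pairs that are not neighbours were not tested in this order. Multiplied by transcript length, the order became Prph2, Rom1, Tulp1, Cdhr1, Rp1l1, Prom1, Rp1, Fscn2 and Mak. Rp1l1, with a transcript of 6684 bases, then moved above Prom1, and Fscn2, with 1713 bases, moved below Rp1. The place of Rp1 in this order rests on the length taken for it. With its longer transcript its product was 611 (mean RPKM times kilobases), against 610 for Rp1l1 and 404 for Prom1. The place of Mak, and the step of Rp1 over Mak, rest on the Mak row described next: with its row exchanged with that of Mak16 in pools 1 and 3, Mak would have 90.5, 54.4 and 103 RPKM and be above Rp1 in pools 1 and 3. Levels of different genes are comparable here only as far as the lengths are right.

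Mak did not follow the other genes. Its row held 2.70, 54.4 and 3.23 RPKM in pools 1, 2 and 3, so pool 2 stood 20.2-fold above pool 1, and the mean of 20.1 ± 29.7 RPKM describes none of the pools. The row of Mak16, a different gene that is known in yeast for ribosome assembly and whose symbol is Mak with 2 digits added, held 90.5, 7.15 and 103 RPKM. Mak16 was low in pool 2, where Mak was high, and high in pools 1 and 3, where Mak was low. The sum of both rows was 93.2, 61.6 and 106 RPKM. With the 2 values of pool 2 exchanged between the rows, an arrangement chosen after the values were seen, 1 row held 2.70, 7.15 and 3.23 RPKM and the other 90.5, 54.4 and 103. The files do not say which row is which gene in which pool, so the level of Mak would be either 4.36 ± 2.43 or 82.5 ± 25.0 RPKM if the rows were exchanged, and these values do not tell which.

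The same form was seen in other rows. The tables held 1808 pairs of rows in which 1 symbol equals the other with digits added. In 129 of them both rows had a highest value over 5 times the lowest (after 0.1 RPKM was added), and in 52 of those, Mak and Mak16 among them, exchanging 1 pool brought both rows under 3 times. The exchanged pool was pool 2 in 29 pairs, pool 3 in 18 and pool 1 in 5. These limits were set after the data were seen, and the cause was not tested.

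Prph2 also belongs to such a pair, with Prph, the gene of the intermediate filament protein peripherin. Its rows did not show the pattern. Prph had 0.926, 1.10 and 0.731 RPKM in pools 1, 2 and 3, far below Prph2 in each. However, Prph2 and Prph were 2 of the only 3 rows, the other being Olfr558, an olfactory receptor gene, that carried more than 2 decimal places in each of the 3 tables, while the other 15465 rows carried at most 2. Their values were therefore written differently from the rest, and how they were obtained is not given in the sources used here. The level and rank of Prph2, its ratio to Rom1 and the shares of the rim pair rest on the Prph2 row. Neither Rom1, Prom1, Cdhr1, Rp1, Rp1l1, Fscn2 nor Tulp1 had such a partner symbol.

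**Figure D2:**
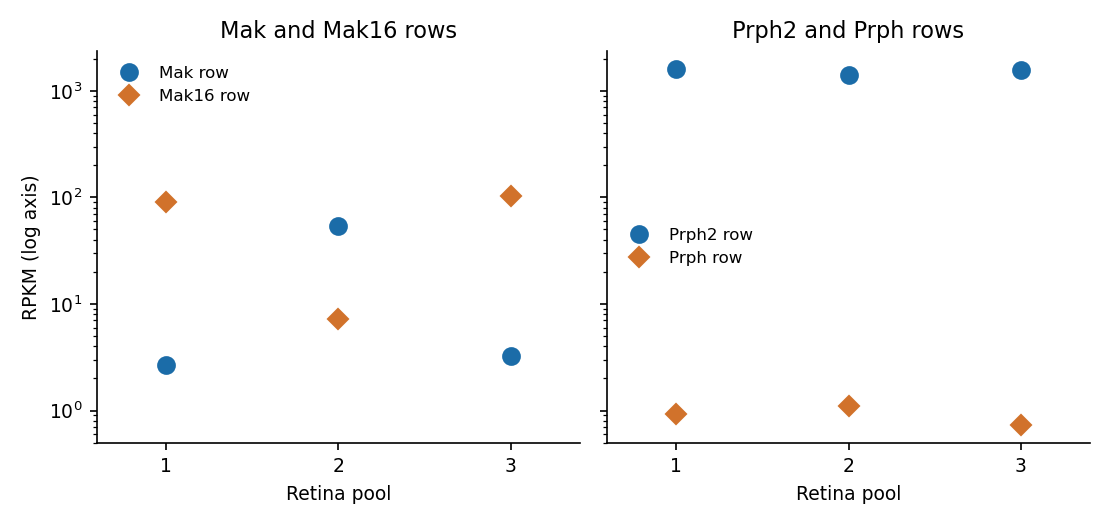
RPKM on a log axis in each of 3 retina pools for the rows of Mak and Mak16 (left) and of Prph2 and Prph (right), with 1 point per row and pool. The Mak and Mak16 points change places in pool 2 (54.4 and 7.15 RPKM), while Prph2 stays above 1400 RPKM and Prph near 1 RPKM in each pool.

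Whether any of the genes varied between pools more than genes of its level was tested across the 12562 genes whose mean reached 1 RPKM, with limma's robust trended prior variance, an F test and Benjamini-Hochberg adjustment. Mak was the 1 gene of the 9 that passed (SD 2.30 on the log2 scale, F = 197, adjusted p = 7.23e-05), and 683 of all tested genes did (5.44%). All 9 genes had passed the filter on low values. Mak no longer passed without pool 2 (adjusted p = 0.991), with either exchange of rows (0.0924 and 0.107) or with the non-robust prior (0.219), by the same limma test. With the non-robust prior 0 of the 12562 genes passed, so that loss is not particular to Mak. The adjusted p of Mak16 was 7.27e-05. Among all tested genes, 81.0% of those that passed had symbols that differ from another only by added digits. Such symbols made up 1874 of the 12562 tested genes. Of these 29.5% passed, against 1.22% of the other tested genes.

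The other 8 genes did not pass, with adjusted p between 0.993 and 0.995 and unadjusted p between 0.174 and 0.902 (limma). Their SDs were between 0.06 for Cdhr1 and 0.25 for Rp1 on the log2 scale, and the median of all 9 was 0.17, against 0.15 over all tested genes. A failed test with 3 pools does not show that a gene was equal in them. Leaving out genes whose symbols differ by added digits, Mak and Prph2 among them, 184 of 10688 genes (1.72%) passed and 0 of the remaining 7 did (0 also with limma's non-robust prior, and 0 at an unadjusted p under 0.05 in the fit of all genes).

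**Figure D3:**
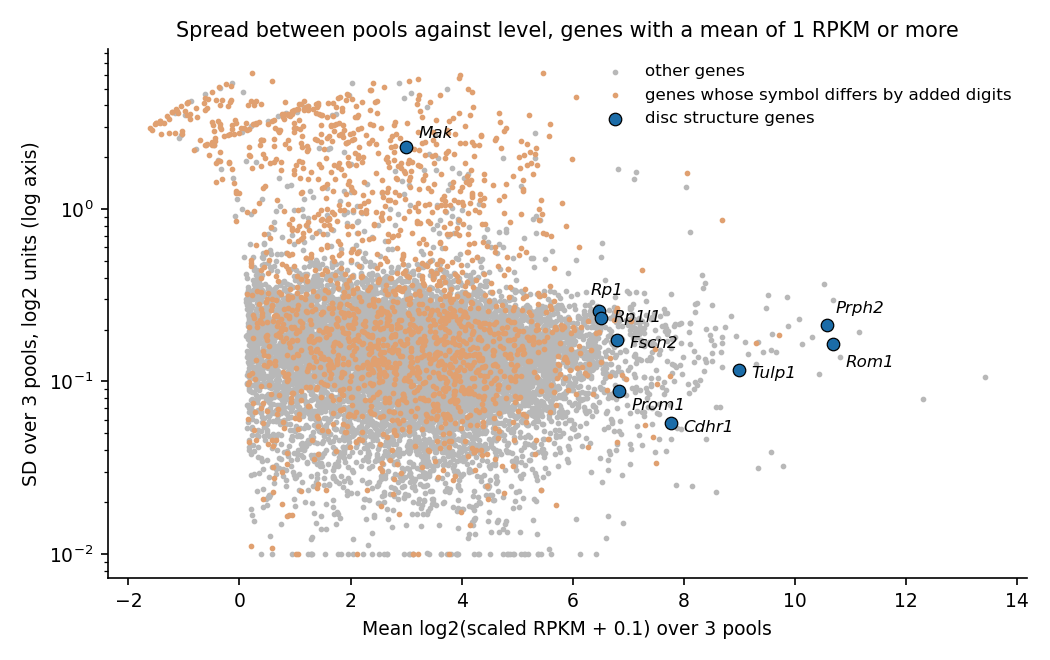
SD over 3 pools (log2 units, log axis, drawn at 0.01 where smaller) against mean log2 level for each of the 12562 tested genes, with genes whose symbols differ from another by added digits in orange and the disc structure genes in blue. The 8 genes other than Mak lie within the main cloud at SDs of 0.06 to 0.25, and Mak lies at 2.30 among orange points.

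The deviations of these 8 genes, none of which passed the test, are given here as a description. After scaling for differences between whole tables, Rom1 deviated from its own mean by 0.04, 0.14 and -0.18 on the log2 scale in pools 1, 2 and 3, Fscn2 by 0.09, 0.11 and -0.20, and Tulp1 by 0.07, 0.06 and -0.13. These are the 3 genes with the shortest transcripts (1517, 1713 and 2091 bases), and each was lowest in pool 3. Prph2 deviated by 0.11, -0.24 and 0.14, Prom1 by -0.03, -0.07 and 0.10, Rp1 by -0.19, -0.10 and 0.29, and Rp1l1 by 0.02, -0.24 and 0.22. These 4 genes, with transcripts of 2665 bases or more, were highest in pool 3. In the values as deposited, before scaling, the 3 short genes were also lowest in pool 3 and Rp1 and Rp1l1 highest there, but Prph2 was highest in pool 1 and Prom1 in pool 2. Cdhr1, with 4332 bases, deviated least, by 0.07, -0.02 and -0.04, and was lowest in pool 3 like the short genes although its transcript is the second longest of the 8. The slope of the deviation on log2 transcript length over 12395 genes was 0.022, -0.086 and 0.064 per doubling of length in pools 1, 2 and 3, so longer transcripts ran higher in pool 3 and lower in pool 2 across the whole table. The part of this trend in the deviations of the 8 genes was not tested.

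**Figure D4:**
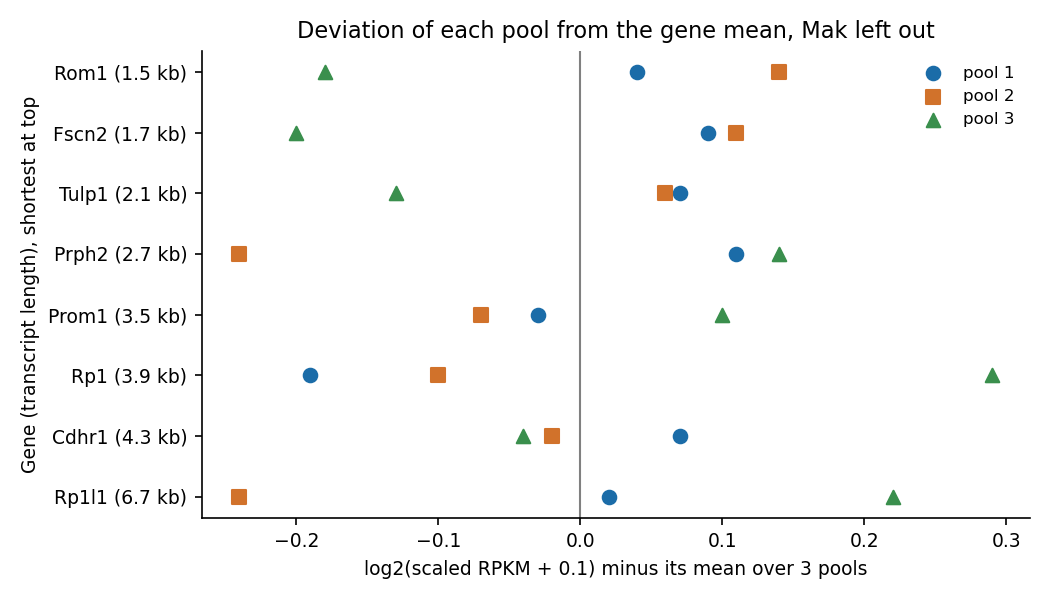
Difference of log2(scaled RPKM + 0.1) in each of 3 retina pools from the mean of the gene, with Mak left out and genes ordered by transcript length, shortest at the top. Pool 3 (green) lies lowest for the short transcripts of Rom1, Fscn2 and Tulp1, from -0.20 to -0.13, and highest for Prph2, Prom1, Rp1 and Rp1l1, from 0.10 to 0.29, where before scaling Prph2 was highest in pool 1 and Prom1 in pool 2. Cdhr1, a long transcript, is also lowest in pool 3, at -0.04.

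Among the measured genes of each listed family, the disc structure genes other than Mak took most of the RPKM. Prph2 and Rom1 together held 85.0% ± 2.86 of the 19 tetraspanins of the list that were measured, ahead of Tspan7 (189, 214 and 168 RPKM, 5.02% ± 0.1) and Cd81 (124, 130 and 86.1 RPKM, 2.98% ± 0.374). The list of tetraspanins is partial, and 11 of the 19 have symbols that differ from another by added digits. Tspan3, for example, had 7.97, 189 and 5.52 RPKM. Rp1 and Rp1l1 held 85.9% ± 1.97 of 9 doublecortin-family genes, ahead of Dcdc2b (11.7 ± 1.76 RPKM) and the kinase gene Dclk2 (9.47 ± 1.14). Dcx, the doublecortin of migrating neurons, had 0.303 ± 0.0723 RPKM.

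Tulp1 held 83.6% ± 2.98 of the 4 measured tubby genes. Tub, the founder of the family, followed with 88.1, 79.0 and 91.9 RPKM and 14.3% ± 2.69, and Tulp3, a ciliary transport adaptor, had 6.54 ± 0.243 RPKM. Fscn2 held 71.9% ± 1.95 of the 2 fascins measured of 3 listed, against 47.1, 45.9 and 38.0 RPKM and 28.1% ± 1.95 for Fscn1, the widely expressed member. Prom1 faced Prom2, with 0.10, 0.08 and 0.08 RPKM, which left 0.076% of the pair to Prom2. Cdhr1 faced only Cdhr2, since 2 of 5 listed cadherin-related genes were measured, with 0.03, 0.06 and 0.08 RPKM and 0.0264%. The share of Mak against Ick, a related ciliary kinase gene with 6.76, 7.33 and 7.48 RPKM, was 28.5%, 88.1% and 30.2% in pools 1, 2 and 3 and rests on the uncertain Mak row. Multiplied by transcript length, the share of Tulp1 was 64.1% and that of Fscn2 62.1%, still the larger part of each family, and that of the Rp1 pair was 92.3%.

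**Figure D5:**
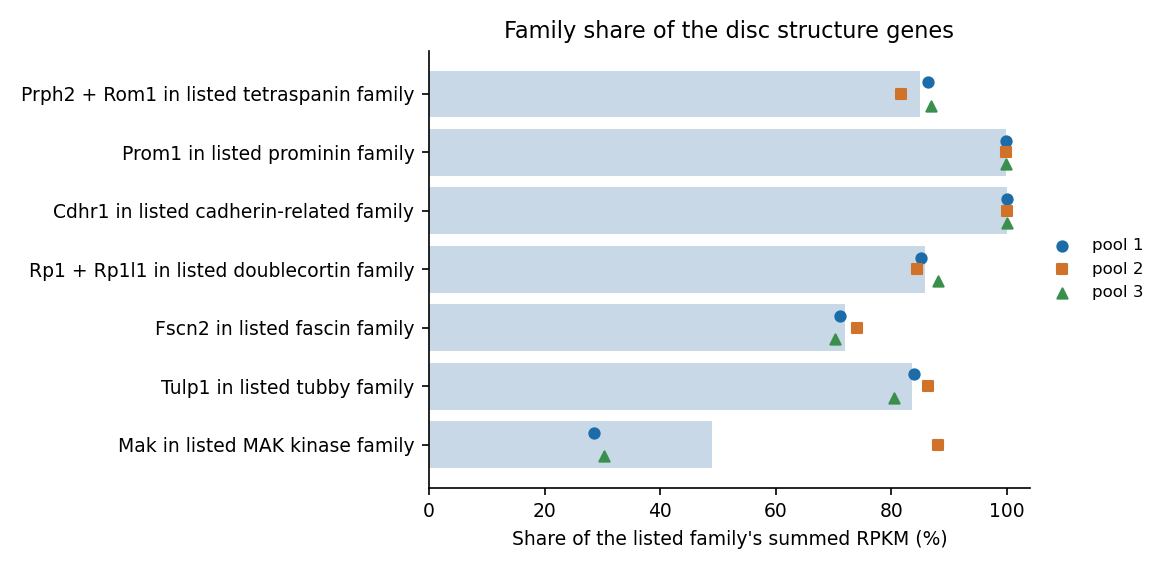
Share of the summed RPKM of each listed family held by its disc structure genes, in percent, with the mean of 3 retina pools as a bar and each pool as a point. The members hold between 71.9% (Fscn2) and nearly all (Prom1 against Prom2 alone, Cdhr1 against Cdhr2 alone) of the measured genes of their lists, except Mak, whose pools lie at 28.5%, 88.1% and 30.2%.

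Other genes of the outer segment and its cilium gave the setting. Of 11 measured genes listed as other outer segment membrane genes, with a median of 73.1 ± 5.47 RPKM, 0 varied between pools. Over all tested genes 5.44% varied, or 1.72% without symbols that differ by added digits. A count of 0 in lists this short is near these shares and says little about the genes. As examples, Slc24a1, the rod sodium/calcium-potassium exchanger, had 209 ± 20.9 RPKM, Cnga1, a subunit of the rod cyclic nucleotide-gated channel, 179.7 ± 25.8, and Abca4, a retinoid transporter of the disc rim, 140.1 ± 7.4. The list was broad and also held Rdh12 (7.5 ± 0.556 RPKM) and Tmem67 (3.92 ± 0.294), whose proteins may lie elsewhere in the cell. Of 12 measured actin genes linked to disc formation, with a median of 32.6 ± 5.22 RPKM, 0 varied, and Actb (196 ± 17.1 RPKM), Cfl1 (101 ± 14.2), which severs actin filaments, and Pfn2 (71.6 ± 13.1), which binds actin monomers, were the highest.

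The connecting cilium, which joins the outer segment to the cell body, and the transport machinery that runs through it had lower transcript levels. Its 17 genes had a median of 11.5 ± 1.12 RPKM. Rpgrip1, a scaffold of the connecting cilium, led with 135 ± 16.4 RPKM, followed by Ttc8 (34 ± 3.58), a BBSome subunit, and Arl13b (33.9 ± 3.17), a ciliary GTPase. Of these genes 1 varied, Tmem231 (8.33, 45.5 and 7.4 RPKM in pools 1, 2 and 3, limma adjusted p = 0.000911), whose symbol is another with digits added. This call was lost without pool 2 and with the non-robust prior, under which 0 of all tested genes passed. Without symbols that differ by added digits, Tmem231 was itself left out and could not be called. The 14 intraflagellar transport genes had a median of 12.3 ± 0.989 RPKM and 0 varied. Beside the 5.44% of all tested genes that varied, the counts of 1 and 0 say little about either list. Ift20 (46.7 ± 7.37 RPKM) and the kinesin-2 genes Kif3b (21.7 ± 1.89) and Kifap3 (21.4 ± 1.56) were highest.

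The row with the most similar 3 values was also found for 8 of the genes, by the smallest largest difference of log2(RPKM + 0.1) over the 3 pools. Rows with clone, predicted-gene or accession-style symbols (such as Rik, Gm or LOC), and some not reported here, were left out of this search. Ptp4a3 (115, 130 and 90.5 RPKM) matched Fscn2 within 0.01. Dynll2 (86.6, 85.7 and 95.5) came nearest to Rp1l1 at 0.07, Rnf207 (107, 123 and 108) to Prom1 at 0.08, Ldha (502, 601 and 401) to Tulp1 at 0.11, Fam161a (76.7, 85.3 and 91.3) to Rp1 at 0.14, Unc119 (1819, 2130 and 1510) to Rom1 at 0.15, and Crybb2 (1645, 1206 and 1640) to Prph2 at 0.22. Mak was nearest to Slc16a12 (3.04, 51.7 and 2.59 RPKM) at 0.31, a row whose symbol differs from another by added digits, as does that of Rnf207. Between 0 and 34 of the rows searched lay within 0.2 of each of these genes, and with 3 pools the match is mainly one of level.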

How the data were processed

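Retina RNA of wild-type C57BL6/J mice was measured by RNA sequencing in 6 samples, which are 3 biological replicates of 5 pooled mice with 2 technical replicates each, in 1 table per biological replicate. The deposited values were taken as RPKM made by the authors, as inferred from the numbers, since no header or label names the unit. FPKM would look the same. The submitters' processing notes list mm9 as the build and GSNAP and HTSeq as tools, while versions, annotation and row filters are not stated there.

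The 15468 rows held 3 repeated symbols with identical values, which were kept once. Depth is unknown. In genes under 900 bases, at most 27.1% of low values lay within 0.1 of whole multiples of a common unit. That unit was the best of many tried, while evenly spread values give 20.0% for a unit fixed beforehand. The lengths used may also differ from those the authors divided by, so this check cannot settle the depth. No counting interval is given, and the SD over pools is the error. Levels are printed as deposited. For the variance test, values were divided by a trimmed mean of log ratios (factors 0.983, 1.09 and 0.932), and log2(RPKM + 0.1) was fitted with limma 3.58.1 in R 4.3.3 where the gene mean reached 1 RPKM, at an adjusted p of 0.05, after the code was tested on simulated data. Ratios were taken within a pool on the same log2 scale, which understates differences of low genes. Transcript lengths are medians over GENCODE M21 transcripts linked to RefSeq, found for 98.5% of genes. Where a symbol had none, the RefSeq symbol that lists it as a synonym was used if there was only 1. Other genes were left without a length.

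Named were all 9 genes, the leading relatives in each family, up to 3 genes of high mean and any varying genes of each pathway list, the nearest row to each of 8 genes and rows with a partner symbol. Dcx, Tspan3, Olfr558 and, as a rod reference, Gnat1 were named after their values were seen. Some results of these rules are not reported here. The members and lists were chosen with earlier results of these data known.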

Additional observations from a re-analysis of the deposited data

How the results depend on the processing

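The SDs and tests rest on 3 pools in 1 group, so p-values measure the spread between these pools only. No paired analysis was possible because there is 1 group. Of 38 alternative values for the mean levels of the 9 genes, 37 stayed within 1 SD, the exception being Mak at 82.5 RPKM with its row exchanged in pools 1 and 3. Most of these values are means with 1 pool left out. With 3 pools such a mean cannot move by 1 SD, so the count says little about stability. For Mak that limit is wide, with an SD of 29.7 against a mean of 20.1 RPKM, and its mean was 2.96 RPKM without pool 2, 28.8 without pool 1, 28.6 without pool 3 and 4.36 with its row exchanged in pool 2. In 11 to 14 settings each, the adjusted p of the 8 genes other than Mak stayed between 0.918 and 1 (limma). The number of varying genes was 683, against 0 with the non-robust prior (704 at an unadjusted p under 0.05), 184 without symbols that differ by added digits, 98 with a wider definition of these, 82 without them and with the non-robust prior, and 303 (without pool 2) to 473 with a pool left out. Among the 9 genes the count was 1, against 0 under each of these except without pools 1 or 3, where it stayed 1, and 0 without Mak or with either exchange of its row. The settings without symbols that differ by added digits left Mak itself out, so it could not be called there. The count of 1 in the pathway lists (Tmem231) was 0 with the non-robust prior and without pool 2. It was also 0 without symbols that differ by added digits by both definitions, and with that and the non-robust prior together, but these settings left Tmem231 itself out. The median difference of the 9 genes from all genes was 4.31 on the log2 scale, against 5.26 by means of log2 values, 5.09 multiplied by length, 4.23 without symbols that differ by added digits and 4.80 without Mak. The log2 ratio of Prph2 to Rom1 was 0.70 multiplied by length, against -0.11. Neighbours of constant direction numbered 4 of 8, against 8 multiplied by length and from 4 to 7 with a pool left out (7 without pool 3). The count multiplied by length rests on the length taken for Rp1. The median family share was 85.0%, with 84.2% to 86.6% when a pool was left out. Member windows with the motif numbered 1, against 5 with the core. The exchanges of rows, the wider definition, the settings without Mak, the combined setting and the core motif were added after seeing the data. The results of the exchanges are set by their construction, and so are counts of 0 in settings that leave out Mak or Tmem231. The causes of the other changes were not tested.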
